A study of Mus musculus with 6 samples.

Results

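The ribosome biogenesis factors examined here are 42 genes, taken by symbol from a table of 52550 mouse genes. They comprise nucleolar assembly factors and the transcription factor Myc, included as their regulator. Each symbol stood on a single row, and all 42 genes passed the filter on low counts. RNA was sequenced in bulk from bone marrow-derived macrophages of C57BL/6 mice, which had been grown for 7 days with the macrophage growth factor M-CSF at 25 ng/ml after red cells were lysed. Macrophages of 3 samples received the culture medium of normal chondrocytes (C CM), and those of the other 3 received the culture medium of apoptotic chondrocytes (AC CM). No sample without chondrocyte medium was analysed here, and the labels do not say how apoptosis was induced, how long the medium was applied or whether the samples came from separate animals or cultures. If they did not, a p-value here reflects technical spread between these 6 samples.

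Ribosomes are assembled in the nucleolus. RNA polymerase I transcribes a long precursor of the ribosomal RNAs, small nucleolar RNPs (snoRNPs) modify and fold it, and large groups of assembly factors cut it into the RNAs of the small and large subunits while ribosomal proteins are added. Most assembly factors leave before the subunits reach the cytoplasm. Myc, which binds DNA together with Max, is known to activate many of their genes, and the demand for ribosomes is highest in growing and dividing cells.

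The libraries held between 65630784 and 80105872 counts, of which the 42 genes took 0.192% to 0.201% in C CM and 0.256% to 0.258% in AC CM. Levels are given in CPM, a gene's counts scaled to a common library size after TMM scaling, and differences as log2 fold changes of AC CM over C CM from edgeR's quasi-likelihood test, with its standard error (SE) and a p-value adjusted over all 17863 genes tested. A gene is called changed at an adjusted p under 0.05. The macrophage label was met by the markers: all 12 macrophage markers were detected, with summed levels of 23900 to 25200 CPM in C CM and 21300 to 22200 CPM in AC CM, and 4 of them fell, among them the M-CSF receptor gene Csf1r (log2 fold change -0.72, SE 0.06, adjusted p = 4.41e-05). Markers of other cells moved with the medium too. Neutrophil markers fell for 11 of 13, from 923 to 1070 CPM in sum to 203 to 217 CPM, lymphocyte markers fell for 9 of 9 tested, from 168 to 194 CPM to 29.1 to 32.5 CPM, and dendritic cell markers fell for 7 of 8 tested, from 57.1 to 70.3 CPM to 15.0 to 16.5 CPM. Fibroblast markers fell for 4 of 7 (3950 to 4910 CPM against 3190 to 3290 CPM), and chondrocyte markers rose for 2 of 7 tested (72.7 to 84.6 CPM against 109 to 112 CPM). Erythroid markers summed to 1.40 to 2.62 CPM in C CM and 1.41 to 4.60 CPM in AC CM, and none of 5 tested was called. Hepatocyte markers, of which none of 9 tested was called, reached a summed level of 44.5, 1.62 and 0.537 CPM in the C CM libraries, in replicate order, and of 50.2, 609 and 1420 CPM in the AC CM libraries. The part of these cells in the results below was not tested. In bulk RNA, fewer cells of a type and less RNA per cell cannot be told apart.

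Ribosome biogenesis factors were higher with the medium of apoptotic chondrocytes across most of the pathway. Of the 42 genes, 33 rose (78.6%, where 13.3% of all genes tested rose) and 0 fell (13.3% of all genes tested fell). None was lower at an unadjusted p under 0.05 either, and DESeq2 and limma-voom, which called 36 and 32 of the 42 higher, also called 0 lower. The summed level of the 42 genes was 1920, 2010 and 1980 CPM in the C CM libraries, in replicate order as throughout, and 2590, 2560 and 2590 CPM in the AC CM libraries. The median log2 fold change was 0.53, against 0 over all genes tested, whose middle part ran from -0.32 (25th percentile) to 0.28 (75th percentile). The changes were moderate: 24 members lay between 0.5 and 1 on the log2 scale and none reached 1, with a range from -0.05 for Gar1 to 0.99 for Utp20. In 38 members (90.5%) every AC CM library lay above every C CM library, which held for 22.6% of all genes tested, and the groups overlapped for Npm1, Gar1, Nop10 and Bysl. In a fit of the 3 C CM libraries and AC CM replicate 1, which drops both libraries with hepatocyte markers at 609 and 1420 CPM, 10 members were called higher, all 42 had a positive fold change, and the median was 0.52. AC CM replicate 1 alone lay above every C CM library in 38 members. That count could not be lower, because it includes every member whose groups were separate, and it adds no support of its own.

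**Figure D1:**
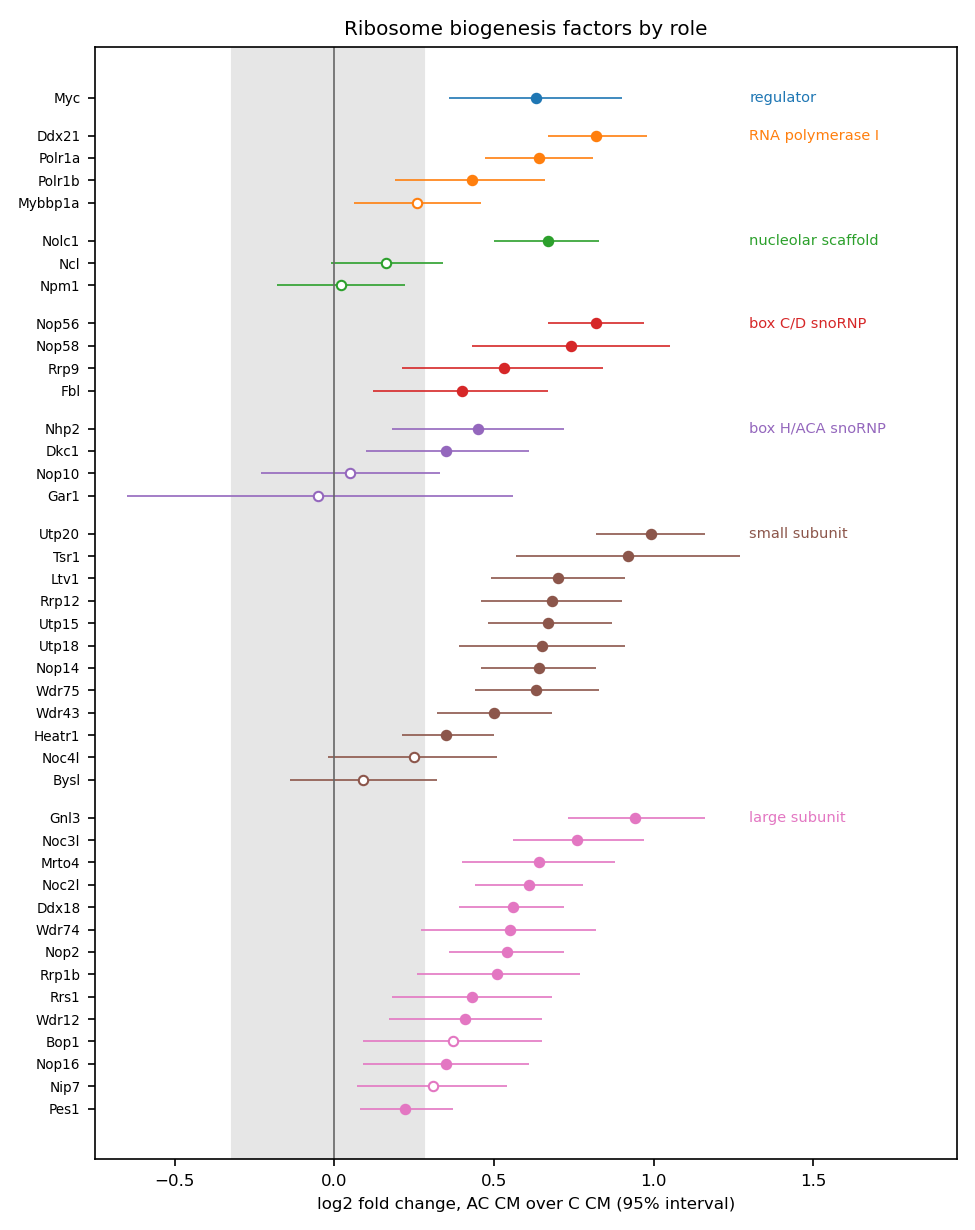
Log2 fold change of AC CM over C CM (horizontal axis) for each of the 42 genes, grouped by role, with the 95% confidence interval of the fit. Filled points are genes called higher, and open points are genes not called. The grey band spans the 25th to the 75th percentile of all genes tested (-0.32 to 0.28). Most filled points lie to the right of the band. Inside it lie Npm1, Gar1, Nop10, Bysl, Ncl, Noc4l and Mybbp1a, which were not called, and Pes1, which was.

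**Figure D2:**
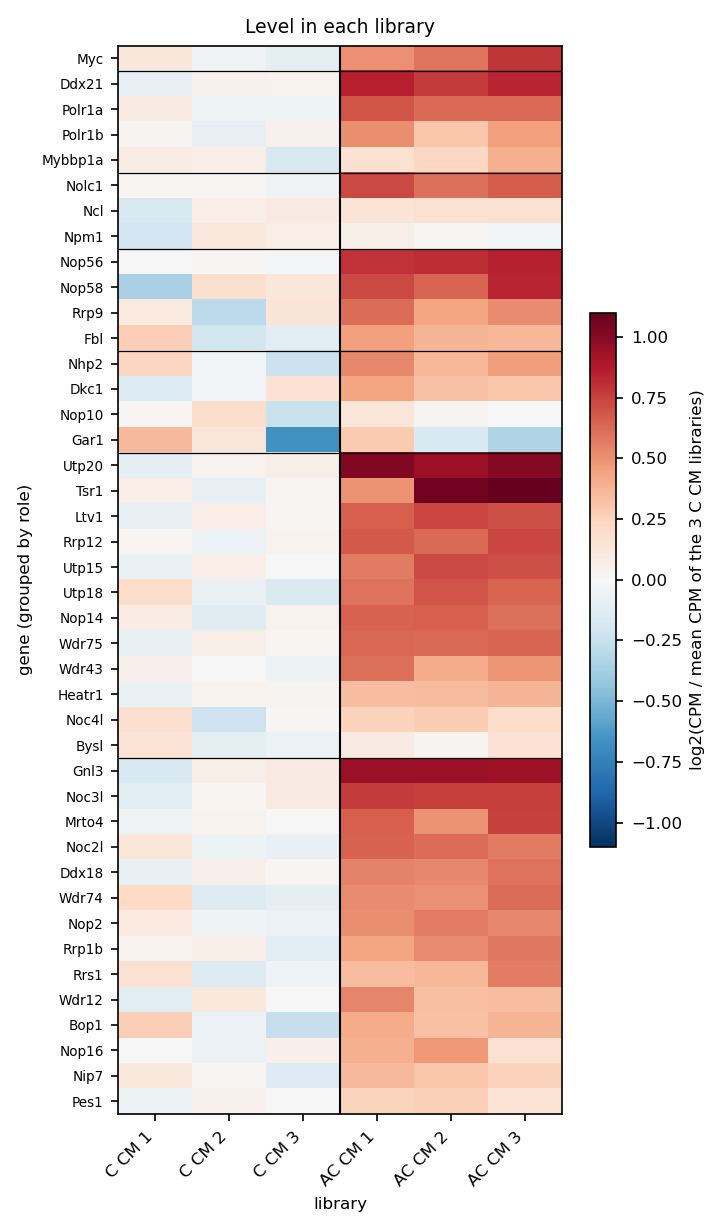
Level of each of the 42 genes in each of the 6 libraries, as the log2 ratio of its CPM to its mean CPM in C CM, with genes in rows by role and libraries in columns. The AC CM columns are higher than the C CM columns in nearly every row, and the columns of Gar1 and Nop10 show no such split.

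Myc itself (chr15:61985391-61990374 in the deposited table, where 38 of the 42 genes have the position they have in GENCODE M21 of GRCm38) was higher with AC CM. It stood at 13.3, 11.9 and 11.4 CPM in C CM and at 17.3, 18.3 and 21.1 CPM in AC CM, so that no AC CM library overlapped a C CM library (log2 fold change 0.63, SE 0.12, adjusted p = 0.00477). The call was lost when AC CM replicates 2 and 3 were both left out (log2 fold change 0.50, adjusted p = 0.2). Of 13 other genes of the Myc network, 5 fell and 0 rose, where 13.3% of all genes tested fell and 13.3% rose. The share that fell was 38.5%. The median log2 fold change of -0.27 lay within the middle part of all genes tested (-0.32 to 0.28). At an unadjusted p under 0.05 1 gene was higher, and DESeq2 and limma-voom each called 0 higher. In fits on fewer libraries, 1 gene rose without AC CM replicate 1, and 3 fell in the fit that drops AC CM replicates 2 and 3, where Mycl (adjusted p = 0.0734) and Mlxip (0.0797) missed the threshold. The 5 included Mxd4, Mxd1 and Mxi1, whose proteins bind Max and repress sites that Myc activates. Mxd3 of the same family was not called (log2 fold change -0.27, adjusted p = 0.208). Neither were Mnt (log2 fold change -0.20, adjusted p = 0.0809) and Mga, which leaned the other way (0.26, adjusted p = 0.112). Mxd4 was at 261, 249 and 241 CPM in C CM and at 97.0, 96.2 and 92.2 CPM in AC CM (log2 fold change -1.39, SE 0.06, adjusted p = 2.44e-06). Mxd1 fell from 37.2 ± 2.24 CPM (SD, n = 3) to 15.8 ± 0.79 CPM (log2 fold change -1.23, adjusted p = 3.13e-05), and Mxi1 fell from 54.9 ± 1.57 CPM to 33.6 ± 1.39 CPM (log2 fold change -0.71, adjusted p = 0.000174). Mycl, a paralogue of Myc, fell as well, from a low level (2.20 ± 0.547 CPM to 0.732 ± 0.0839 CPM), as did Mlxip (log2 fold change -0.35). Max, the partner that Myc and the Mxd proteins share, had overlapping groups (84.5, 110 and 109 CPM against 73.0, 101 and 98.8 CPM, log2 fold change -0.15, adjusted p = 0.498).

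The motif that Myc and Max are known to bind, the E-box CACGTG, was looked for in RefSeq promoter windows of GRCm38.p6, each with 250 bases before and 50 bases after the annotated start. A window was found for 36 of the 42 genes, those without being Fbl, Bop1, Npm1, Rrp12, Rrs1 and Myc. CACGTG, which reads the same on both strands, was in the window of 8 of the 36 (22.2%), of 8.09% of all 27025 genes with a window and of 11.3% of the 11583 such genes that were tested. The sites are shown because these 8 genes carry the perfect motif near their start. Each line gives the strand of the gene 5′ to 3′ with CACGTG in capitals.
Utp20: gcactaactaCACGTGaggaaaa
Tsr1: acttggtgcaCACGTGgactgcagaa
Ltv1: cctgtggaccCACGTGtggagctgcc
Utp18: gagcgccggtCACGTGgcttgcggcg
Nop2: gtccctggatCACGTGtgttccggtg
Wdr43: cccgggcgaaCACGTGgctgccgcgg
Mybbp1a: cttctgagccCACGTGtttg
Pes1: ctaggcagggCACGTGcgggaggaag

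In GRCm38.p6 these stretches lie at chr10:88826765-88826787 on the minus strand for Utp20, chr11:74898094-74898119 on the plus strand for Tsr1, chr10:13193094-13193119 on the minus strand for Ltv1 and chr11:93885771-93885796 on the minus strand for Utp18. They lie at chr6:125131813-125131838 for Nop2, chr17:71616222-71616247 for Wdr43, chr11:72441357-72441376 for Mybbp1a and chr11:3963967-3963992 for Pes1, all on the plus strand. The motif begins before the annotated start in Utp18 (position -20) and Nop2 (position -60), and within the first bases of the transcript in the other 6 (positions 3 to 41). Of the 8 genes, 7 rose, with log2 fold changes from 0.22 for Pes1 to 0.99 for Utp20, and Mybbp1a was not called; of all 36 genes with a window, 29 rose. The variant CACGCG, searched on both strands, was in the window of 11 of the 36 genes (30.6%) and of 18.6% of the tested genes with a window. It was in 7 of the 29 that rose (24.1%) and in 4 of the 7 that were not called (57.1%). A match describes these letters only and was not tested as a site of binding.

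RNA polymerase I and the factors of its transcription rose for 3 of 4 members. Ddx21 (chr10:62580251-62602281), an RNA helicase that takes part in transcription and processing of ribosomal RNA, was at 71.5, 78.7 and 78.4 CPM in C CM and at 138, 130 and 136 CPM in AC CM. The lowest AC CM library was thus well above the highest C CM library, and the log2 fold change was 0.82 (SE 0.07, adjusted p = 5.68e-05). Polr1a, the largest subunit of the polymerase, was at 36.3, 33.0 and 33.0 CPM against 55.1, 52.4 and 52.4 CPM (log2 fold change 0.64, SE 0.08, adjusted p = 0.000373). Polr1b, the other large catalytic subunit, was at 16.0, 14.7 and 16.2 CPM against 22.3, 19.3 and 21.4 CPM (log2 fold change 0.43, SE 0.10, adjusted p = 0.0151). Polr1b missed the threshold when C CM replicate 2 (adjusted p = 0.052) was dropped, and likewise for AC CM replicates 1 (0.0702) and 3 (0.0573). Mybbp1a, a nucleolar protein that binds Myb and acts on ribosomal RNA synthesis, had separate groups (123, 122 and 103 CPM against 130, 136 and 152 CPM) but missed the threshold in edgeR's test (log2 fold change 0.26, SE 0.09, adjusted p = 0.0626) and passed it in DESeq2 (adjusted p = 0.0427).

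The abundant nucleolar scaffold proteins differed among themselves. Nolc1, which carries snoRNPs and links them to the polymerase, rose from 31.2, 31.0 and 30.0 CPM to 50.8, 46.8 and 48.8 CPM (log2 fold change 0.67, SE 0.07, adjusted p = 0.000265). Ncl, nucleolin, was at 331, 392 and 396 CPM in C CM and at 414, 419 and 419 CPM in AC CM. Its groups were separate, with C CM replicate 1 the lowest, but the difference did not pass the test (log2 fold change 0.16, 95% confidence interval -0.01 to 0.34, adjusted p = 0.156). Npm1 (chr11:33152287-33163206), nucleophosmin, a histone chaperone and a main component of the outer nucleolus, was at 273, 342 and 333 CPM against 331, 320 and 309 CPM. Its AC CM libraries lay inside the range of the C CM libraries, and the interval of the log2 fold change ran from -0.18 to 0.22 (estimate 0.02, adjusted p = 0.902). Per kilobase of exon, Npm1 had the highest level of all 42 genes (119 CPM per kb in C CM), followed by Pes1 (37.0), Ncl (36.6) and Noc2l (31.0), and Rrp1b had the lowest (1.33).

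The 2 classes of snoRNP gave different counts, although the difference between classes was not tested. All 4 box C/D proteins, which carry out or assist methylation of the ribose in ribosomal RNA and early cleavage, rose. Nop56 (chr2:130274430-130279313), a core protein of these particles, was at 32.6, 32.9 and 32.2 CPM in C CM and at 56.6, 57.1 and 58.6 CPM in AC CM, with almost no spread within either group (log2 fold change 0.82, SE 0.07, adjusted p = 5.67e-05). Its partner Nop58 was at 20.9, 30.2 and 29.1 CPM against 44.2, 41.7 and 47.7 CPM (log2 fold change 0.74, SE 0.14, adjusted p = 0.00436). Fbl, fibrillarin, the methyltransferase itself, was at 55.0, 39.5 and 42.1 CPM against 62.4, 59.1 and 58.5 CPM (log2 fold change 0.40, SE 0.12, adjusted p = 0.0385). C CM replicate 1 was closest to the AC CM libraries, and the call was lost without C CM replicate 2 or 3 or without any of the AC CM replicates (adjusted p from 0.0924 to 0.126). Rrp9, which binds the snoRNA needed for the early cuts, was at 12.1, 9.17 and 12.4 CPM against 17.2, 15.2 and 16.1 CPM (log2 fold change 0.53, adjusted p = 0.0225). It lost its call without C CM replicate 2 (0.0502) and without AC CM replicates 1, 2 or 3 (0.0853, 0.0517 and 0.0653).

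Of the 4 box H/ACA proteins, which convert uridine to pseudouridine and are shared with telomerase, 2 rose. Nhp2 was at 38.8, 32.3 and 28 CPM in C CM and at 47.7, 42.5 and 45.3 CPM in AC CM (log2 fold change 0.45, SE 0.12, adjusted p = 0.0222). The pseudouridine synthase Dkc1, dyskerin, was at 13.8, 15.0 and 17.1 CPM against 20.7, 19.1 and 18.9 CPM (log2 fold change 0.35, SE 0.11, adjusted p = 0.0464). Both calls were near the threshold. Dkc1 lost its call without each library except C CM replicate 3 (adjusted p from 0.074 to 0.155), and Nhp2 missed the threshold when C CM replicate 2 (0.0764) or 3 (0.0604) was dropped, and likewise for AC CM replicates 1 (0.0872) and 3 (0.0722). Gar1 was at 9.43, 8.07 and 4.64 CPM against 9, 6.57 and 5.88 CPM, with the groups fully interleaved and a wide interval (log2 fold change -0.05, 95% confidence interval -0.65 to 0.56, adjusted p = 0.924). Nop10 was at 21, 23.8 and 17.6 CPM against 22.8, 21.2 and 20.7 CPM, again with overlapping groups (log2 fold change 0.05, interval -0.23 to 0.33, adjusted p = 0.812).

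Factors of the small subunit rose for 10 of 12 members (83.3%, where 13.3% of all genes tested rose), with a median log2 fold change of 0.64. Utp20 (chr10:88746607-88826804), a giant scaffold protein of the small subunit processome, had the highest fold change of the 42 genes: it was at 33.9, 37.4 and 38 CPM in C CM and at 73.6, 69.9 and 73.5 CPM in AC CM. That is a ratio of means of 1.98, with no overlap (log2 fold change 0.99, SE 0.08, adjusted p = 3.65e-05). Tsr1, which is placed on the late precursor of the small subunit, was at 22.1, 19.7 and 21.3 CPM against 29.6, 43.8 and 45.9 CPM. All of its AC CM libraries lay above C CM, but AC CM replicate 1 was far below replicates 2 and 3, and the fold change was 0.92 with all libraries (SE 0.16, adjusted p = 0.00263) and 0.49 without AC CM replicates 2 and 3 (adjusted p = 0.143). Ltv1, which also sits on the late precursor, was at 15.9, 17.9 and 17.1 CPM against 26.8, 28.2 and 27.8 CPM (log2 fold change 0.70, SE 0.09, adjusted p = 0.000712).

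Proteins that bind the precursor as it is transcribed moved in the same direction. Utp15, Wdr43, Wdr75 and Heatr1 belong to a complex that is among the first to bind it, and they rose with log2 fold changes of 0.67, 0.50, 0.63 and 0.35. Heatr1 was at 72.7, 78.7 and 78.0 CPM against 97.0, 97.2 and 98.9 CPM, a small but separate difference (SE 0.06, adjusted p = 0.00375). Utp18 and Nop14, further processome members, rose by similar amounts (log2 fold changes 0.65 and 0.64), and Nop14 was at 38, 32.8 and 36.8 CPM against 56.1, 56.5 and 54.7 CPM. Rrp12, which helps to export the precursor, was at 13.0, 12.3 and 13.2 CPM against 20.5, 19.8 and 21.3 CPM (log2 fold change 0.68, SE 0.10, adjusted p = 0.00111). The other 2 were not called. Noc4l, the partner of Nop14, was at 20.5, 15.5 and 18.3 CPM against 21.6, 22.0 and 20.8 CPM (log2 fold change 0.25, interval -0.02 to 0.51, adjusted p = 0.161), and passed without C CM replicate 1 (0.0389). Bysl, bystin, was at 25.0, 21 and 21.6 CPM against 24.0, 23.0 and 25.1 CPM, and its groups overlapped (log2 fold change 0.09, interval -0.14 to 0.32, adjusted p = 0.553).

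**Figure D3:**
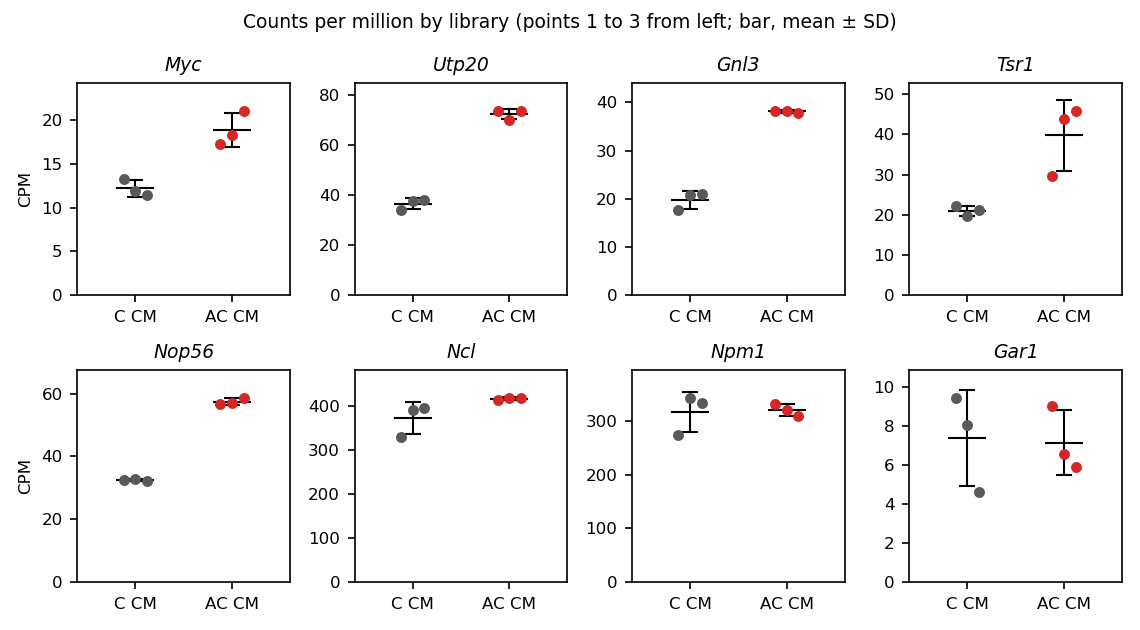
CPM (vertical axis, from 0) of Myc, Utp20, Gnl3, Tsr1, Nop56, Ncl, Npm1 and Gar1 in the 3 C CM and 3 AC CM libraries; points are libraries and bars are the mean with its SD. Utp20, Gnl3 and Nop56 form tight separate groups, Tsr1 has a low AC CM replicate 1 (29.6 CPM), and Npm1 and Gar1 overlap.

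Factors of the large subunit rose for 12 of 14 members (85.7%, where 13.3% of all genes tested rose), with a median log2 fold change of 0.53. In all 14 every AC CM library was above every C CM library, which held for 22.6% of all genes tested. Gnl3 (chr14:31012434-31019089), nucleostemin, a nucleolar GTPase known from stem cells and dividing cells, was at 17.6, 20.7 and 21.1 CPM in C CM and at 38.3, 38.3 and 37.8 CPM in AC CM (log2 fold change 0.94, SE 0.09, adjusted p = 0.000158). It was second to Utp20 among the 42 genes, and the ratio of its means was 1.92. Noc3l and Noc2l, partners in early assembly and export, were at 17.8, 19.6 and 20.7 CPM against 33.0, 32.9 and 32.8 CPM (log2 fold change 0.76, SE 0.09, adjusted p = 0.000394) and at 97.2, 85.6 and 83.7 CPM against 139, 136 and 132 CPM (log2 fold change 0.61, SE 0.07, adjusted p = 0.000477). Mrto4, which holds the place of the stalk proteins on the precursor, was at 13.3, 14.0 and 13.6 CPM against 21.5, 19.2 and 23.0 CPM (log2 fold change 0.64, SE 0.11, adjusted p = 0.00236). The helicase Ddx18, the RNA methyltransferase Nop2, Wdr74 and Rrp1b rose with log2 fold changes of 0.56, 0.54, 0.55 and 0.51.

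The members of the PeBoW complex, Pes1, Bop1 and Wdr12, which is needed to mature the large subunit RNA, showed smaller differences. Pes1 was at 108, 116 and 112 CPM against 133, 134 and 124 CPM (log2 fold change 0.22, SE 0.06, adjusted p = 0.0318). Wdr12 was at 17.9, 21 and 19.3 CPM against 28.2, 24.4 and 24.5 CPM (log2 fold change 0.41, SE 0.11, adjusted p = 0.0207). Bop1 was at 41.9, 33.3 and 29.3 CPM against 46.2, 43.5 and 45.2 CPM. Its groups were separate, yet it missed the threshold (log2 fold change 0.37, SE 0.12, adjusted p = 0.0562) and passed it without C CM replicate 1, its highest C CM library (0.00202). Pes1 lost its call when C CM replicate 3 was dropped (0.0701) and when any AC CM library was (0.122, 0.126 and 0.0625), and Wdr12 lost it when C CM replicate 3 (0.0536) and when AC CM replicate 1 (0.0916) was dropped.

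The remaining large subunit factors were close to the threshold as well. Rrs1, which brings the 5S RNP into the precursor, was at 25.7, 20.7 and 22.3 CPM against 28.9, 29.5 and 33.9 CPM (log2 fold change 0.43, SE 0.11, adjusted p = 0.0209). Nop16 was at 13.9, 13.3 and 14.4 CPM against 18.2, 19.3 and 15.6 CPM (log2 fold change 0.35, SE 0.11, adjusted p = 0.0496), and Nip7 was at 18.9, 17.7 and 15.8 CPM against 22.4, 21.6 and 20.8 CPM without being called (log2 fold change 0.31, SE 0.10, adjusted p = 0.0568). Nip7 passed without C CM replicate 1 (0.0227). Nop16 kept its call without AC CM replicate 3 and lost it without each other library (adjusted p from 0.0633 to 0.181). With all libraries, Nop16 also lost its call in the fits named in the last section. Rrs1 missed the threshold when C CM replicate 2 (0.0747) or 3 (0.0654) was dropped, and likewise for AC CM replicates 2 (0.0543) and 3 (0.0945).

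Across the 42 genes, the spread between libraries was small: the median coefficient of variation was 7.84% in C CM and 3.9% in AC CM, against 13.6% and 8.92% for all genes tested. The 42 genes and all genes tested were not matched for level, so the smaller spread is not shown to be particular to the 42. As a description across these 42 genes, which are measured in the same libraries, Spearman's rho between the level per kilobase in C CM and the log2 fold change was -0.37, and between exonic length and the log2 fold change it was 0.29. The authors' deposited table of the same comparison calls 35 of the 42, including the 33 called here with the same sign, and adds Bop1 (adjusted p = 0.0313 there) and Nip7 (0.0474 there).

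Several members are themselves hosts of snoRNAs, small RNAs that are cut from introns and guide the modification of ribosomal RNA. In GENCODE M21, 7 of the 42 genes (16.7%) hold 21 annotated snoRNAs on their own strand, against 1.73% of the 14074 protein-coding genes tested and 30 of the 79 cytosolic ribosomal protein genes (38%). Nop56 holds 5, Nop58 holds 4, Gnl3, Ncl and Wdr43 hold 3 each, Tsr1 holds 2 and Dkc1 holds 1. The log2 fold changes of these 7 hosts ran from 0.16 for Ncl to 0.94 for Gnl3, with a median of 0.74, and the other 35 had a median of 0.53. The levels of the snoRNAs themselves were not examined here.

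It is not stated whether the counts use the strand, and 15 of the 42 genes share exonic bases with a gene on the opposite strand, so that reads from these stretches may not be separable. The share was largest for Tsr1, where 1240 bp or 32.3% of its exons overlap Srr, which was at 18.8, 24.6 and 20 CPM against 21.9, 23.6 and 23.3 CPM (log2 fold change 0.12, adjusted p = 0.512). Noc2l shares 598 bp (20.9%) with Samd11, which rose with a log2 fold change of 0.51 (adjusted p = 0.0283) at 7.67 to 13.5 CPM. Bysl shares 361 bp (9.4%) with Ccnd3, whose levels ran from 15.5 to 42.8 CPM without a call (log2 fold change 0.31, adjusted p = 0.627). The other 12 share at most 5.3% of their exonic bases, which does not give the share of reads. Counted over all libraries, the genes that overlap Bop1, Dkc1, Heatr1, Nop56 and Rrp9 had more counts than these members. Those that overlap the rest of the 12 had fewer.

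With all libraries, other genes of the pathway, grouped by role in lists beside the 42, mostly moved the same way. The ribosomal proteins did not. Of the other small and large subunit factors 47.7% and 56.5% rose, where 13.3% of all genes tested rose. Over all genes, 2370 rose with all libraries, 1546 without AC CM replicate 2 and 1511 without AC CM replicate 3. Of 44 other small subunit factors, 21 rose and 0 fell (median log2 fold change 0.28), with Pwp2 at 0.79, Nol10 at 0.78, Aatf at 0.75 and Nat10, which acetylates ribosomal RNA, at 0.72. At an unadjusted p under 0.05 1 of these was lower, and DESeq2 called 1 lower and limma-voom 0. Of 46 other large subunit factors, 26 rose and 1 fell (median 0.40). The giant ATPase Mdn1 was at 35.0, 43.3 and 40.1 CPM against 69.0, 64.8 and 68.0 CPM (log2 fold change 0.77), and Rsl1d1, Gtpbp4 and Sdad1 rose by 0.67, 0.65 and 0.53 on the log2 scale. Nop53 was the exception that fell, from 188, 145 and 136 CPM to 105, 112 and 109 CPM (log2 fold change -0.53, SE 0.11, adjusted p = 0.00902). The count of small subunit factors that rose was 12 without AC CM replicate 2 and 12 without AC CM replicate 3, and without both it was 2, against 4 for the large subunit factors.

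Of 11 snoRNP assembly genes, 6 rose (median 0.37; Naf1 0.55, Snu13 0.54, Nufip1 0.54, Znhit6 0.47), and of 24 pre-rRNA nucleases tested, 13 rose (median 0.34; Dis3 0.67, Exosc8 0.60, Rpp14 0.54, Exosc10 0.31). None of either list fell, at an unadjusted p under 0.05 or in DESeq2 or limma-voom. Exosc6 of the RNA exosome varied too much to be read, from 0.0448 to 10.8 CPM within C CM alone. The RNA polymerase I machinery outside the 42 was mixed: of 15 genes, 5 rose and 1 fell (median 0.17), with the processing factor Tcof1 at 0.42, Taf1d at 0.49, Taf1a at 0.47 and Baz2a, a silencer of ribosomal DNA, at -0.31. The shares that rose in these lists were 54.5%, 54.2% and 33.3%, in the order given, against 13.3% of all genes tested. These counts were sensitive to single libraries. Over all genes, 2370 rose with all libraries and 1713, 1546 and 1511 without AC CM replicates 1, 2 and 3. The counts of polymerase genes and of nucleases dropped more steeply than that without each of these libraries. The count of assembly genes did so without AC CM replicates 1 and 2. The assembly genes that rose numbered 3 without AC CM replicate 1 and 3 without AC CM replicate 2. The nucleases numbered 8 without C CM replicate 3, 5, 8 and 7 without AC CM replicates 1, 2 and 3. The polymerase genes that rose numbered 2 and 3 without C CM replicates 2 and 3 and 2, 3 and 1 without AC CM replicates 1, 2 and 3. Without C CM replicate 3, 2 of them fell. Without AC CM replicates 2 and 3 together the 3 lists had 1, 1 and 0 genes that rose.

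**Figure D4:**
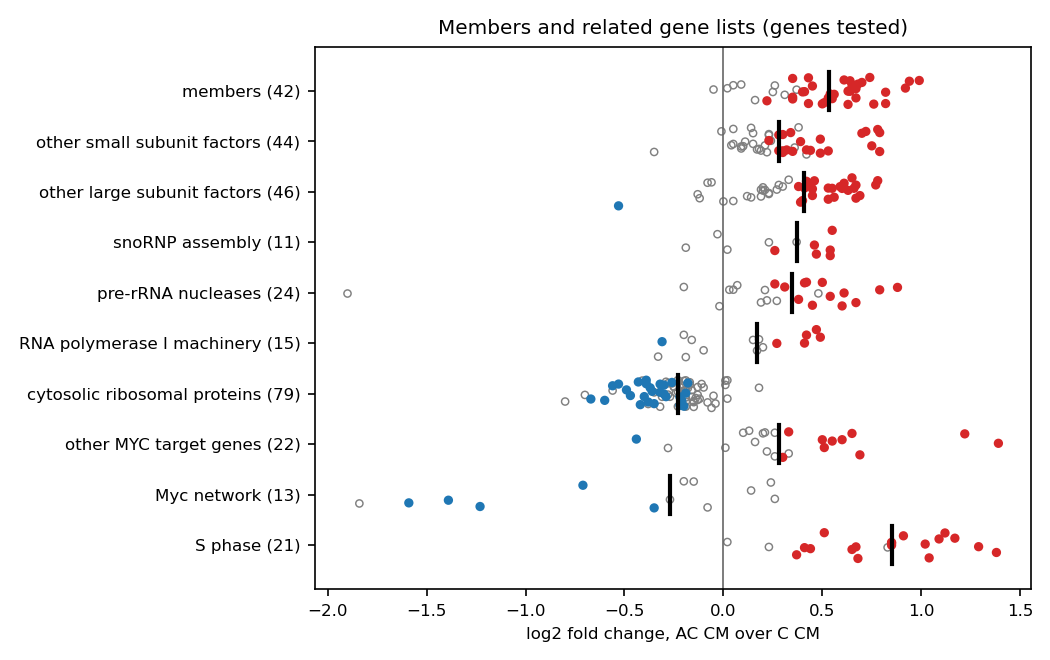
Log2 fold change of AC CM over C CM (one point per gene tested) for the 42 ribosome biogenesis factors and 9 related gene lists; red points were called higher, blue points were called lower, open points were not called, and the bar is the median of each list. The factors and most processing lists lie above 0, and the cytosolic ribosomal proteins lie mostly below 0.

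Among the 79 genes of cytosolic ribosomal proteins, the building blocks that the factors assemble, 27 fell and 0 rose with all libraries. The share that fell was 34.2%, against 13.3% of all genes tested. Their median log2 fold change of -0.23 lay within the middle part of all genes tested (-0.32 to 0.28). At an unadjusted p under 0.05 1 was higher, and DESeq2 and limma-voom called 0 higher. Their summed level was 39700, 37200 and 34800 CPM in C CM and 32900, 31700 and 30600 CPM in AC CM, which is a lower sum in every AC CM library, with C CM replicate 1 the highest. Rps9 was at 572, 474 and 459 CPM against 362, 357 and 349 CPM (log2 fold change -0.49, SE 0.09, adjusted p = 0.00312). Rplp0, Rps18 and Rpl31 fell by 0.36, 0.38 and 0.37 on the log2 scale. The number that fell was 12 without C CM replicate 2, 17, 7 and 6 without AC CM replicates 1, 2 and 3, and 0 without AC CM replicates 2 and 3 together. Over all genes, 2371 fell with all libraries, 1675 without AC CM replicate 2 and 1647 without AC CM replicate 3. The count of ribosomal protein genes thus dropped more steeply than the count over all genes when either library was left out. Many ribosomal protein genes have processed pseudogenes of near-identical sequence. The part of reads shared with such copies was not tested, for this list or for the 42.

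Other known MYC target genes rose for 10 of 22 (45.5%, where 13.3% of all genes tested rose), with a median log2 fold change of 0.28. Among those that rose were Cdca7 at 1.39, the translation factor Eif4e at 1.22, the mitochondrial chaperone Hspd1 at 0.69 and the helicase Eif4a1 at 0.55. Odc1, the classical MYC target that starts polyamine synthesis, was at 79.0, 78.4 and 98.4 CPM against 69.3, 55.2 and 64.4 CPM and fell (log2 fold change -0.44, SE 0.11, adjusted p = 0.0216). Odc1 missed the threshold when C CM replicate 3 (adjusted p = 0.0631) was dropped, and likewise for AC CM replicates 2 (0.0838) and 3 (0.0644). The count of targets that rose was 15 without C CM replicate 1, and it was 5 without AC CM replicates 2 and 3. Genes of DNA replication, which mark dividing cells, moved with the factors: 18 of 21 rose and 0 fell. The share that rose was 85.7%, against 13.3% of all genes tested. At an unadjusted p under 0.05 and in DESeq2 and limma-voom 0 fell as well, and the median over the 21 was 0.85. Their summed level was 832, 943 and 853 CPM in C CM and 1620, 1610 and 1550 CPM in AC CM, and subunits of the replicative helicase led the list. Mcm6, Mcm3 and Mcm4 rose by 1.29, 1.12 and 0.91 on the log2 scale, and Mcm2 rose from 41.0 ± 1.91 CPM to 106 ± 4.53 CPM (SD, n = 3, log2 fold change 1.38, adjusted p = 4.96e-06). Without AC CM replicates 2 and 3, 10 of the 21 rose. The part of cell division in the higher levels of the 42 genes was not tested.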

How the data were processed

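Bulk RNA from 6 samples, 3 C CM and 3 AC CM, was compared. The authors deposited a table of whole-number read counts per gene, not normalized, for 52550 genes. They also deposited normalized signal columns (a sample's counts over 1 constant, as the values show), which were not tested. The authors' deposited log2 fold changes and p-values, raw and adjusted, were only read. The tools named, without roles, per the submitters' processing notes are HISAT2 2.1.0, fastp 0.17.1, R 3.4.3 and DESeq2 1.18.1. The genome build, annotation, counting program and its use of strand were not given in the sources used here. Of the gene IDs matched to GENCODE M21 (GRCm38), 95.2% had the same coordinates there. Low counts favoured multiples of 4 (394 to 446 genes had a count of 3 and 696 to 814 a count of 4 in a library), so totals may overstate independent fragments. Mitochondrially encoded genes had 0 counts throughout.

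Genes were filtered with filterByExpr, leaving 17863, and scaled by TMM. The test was edgeR's robust quasi-likelihood test (edgeR 4.0.16, R 4.3.3), with group as the only term, two-sided, and Benjamini-Hochberg adjustment over all genes tested. The fit was tested on simulated data. DESeq2 1.42.0, limma-voom 3.58.1, other scalings and filters, a replicate block, counts divided by 4, and left-out libraries were alternatives. Replicates differed by more than sampling noise (chi-square per gene from 27). Levels per kilobase use GENCODE M21 exonic lengths, the union of the exons of all transcripts, and promoter windows come from RefSeq. All 42 members are named, and of each other pathway list, not of the cell type markers, the 4 genes with the smallest p. Max, Mxd3, Mnt, Mga, Mlxip, Csf1r, Nop53, Odc1, Exosc6 and the genes that overlap members were named outside this rule, after their values were seen. The members and lists were chosen with earlier results of these data known.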

Additional observations from a re-analysis of the deposited data

How the results depend on the processing

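Under 17 alternatives, 0 of the 42 genes was called lower, and no called gene changed sign. The number called higher was 33 with RLE scaling, 30 with upper quartile scaling, 31 with total counts, 30 without a filter, 36 with DESeq2 and 32 with limma-voom, and ran from 25 to 34 when 1 library was left out. It was 10 in the fit that drops AC CM replicates 2 and 3: that fit has 1 AC CM library, assumed to vary like the C CM libraries, so fewer samples bear on it. Calls held in every alternative for 10 genes, were lost only in that fit for 14, and were lost in another for 9. With all libraries, Nop16 lost its call under upper quartile scaling, total counts, no filter, limma-voom, the replicate block and without the 20 most counted genes. Dkc1 lost its call under upper quartile scaling, total counts, no filter and the block. Fbl lost its call under upper quartile scaling and no filter, and Pes1 under the block. Equal replicate numbers did not pair the samples (correlations of deviations -0.06, 0.03 and 0.04), and with a replicate block 31 genes were called higher. Over all genes, 2370 were called higher and 2371 lower with all libraries, 1546 higher without AC CM replicate 2, 1511 higher without AC CM replicate 3, and 510 higher and 764 lower without both. With 3 samples a group, an exact permutation test cannot go below p = 0.1.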
